A study of Arabidopsis thaliana with 8 samples.

Results

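The genes described here are 5 nuclear genes of Arabidopsis thaliana, 3 assigned to the pentatricopeptide repeat (PPR) family, AT5G39980, AT3G26630 and AT2G30100, and 2 assigned to the mTERF family, AT4G09620 and AT1G79220. Each stands alone on 1 probe of the array, and the 5 probes are among the 692 of 3439 probes to which the platform annotation gives exactly 1 gene. The genes were chosen because they differed between the study's groups in earlier results of these data. Their differences between the groups are therefore a description and carry no test. The gene table used here holds no family name for any of the 5 identifiers, so the family is that under which each gene was chosen, and no individual role is given for them.

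The study measured total RNA on expression arrays in wild-type plants of the ecotype Columbia 0. The high CO2 group holds 4 arrays of plants kept for 1 d in air with 1% CO2 by volume, and the normal CO2 group holds 4 arrays of plants at normal CO2, labelled 0 d. There is no normal CO2 group of 1 d, so high CO2, the further day and the move cannot be told apart. The sources used here give neither the plants' age nor the tissue, nor whether replicates are separate plants, and the errors may thus be those of repeated measurement only. Tissue RNA was measured, and fewer cells of a type cannot be told apart from less of a transcript per cell.

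PPR proteins are built from tandem repeats, each a pair of helices that can contact a base of RNA. They are encoded in the nucleus, and most are imported into chloroplasts or mitochondria, where single members bind particular organelle transcripts and act in their cleavage, splicing, editing, stability or translation. mTERF proteins, named after the mitochondrial transcription termination factor of animals, are also helical repeat proteins of the organelles. Their plant members are known for roles in organelle transcription, intron splicing and ribosome assembly, and loss of several of them disturbs chloroplast development.

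At high CO2, 3 of the 5 genes were higher, the PPR genes AT2G30100 and AT5G39980 and the mTERF gene AT4G09620. The other 2, the PPR gene AT3G26630 and the mTERF gene AT1G79220, were lower. Each family thus held genes that differed in opposite directions. Ordered by the size of the fold, AT2G30100 was 8.18-fold higher, AT5G39980 4.36-fold higher, AT1G79220 2.63-fold lower, AT4G09620 2.59-fold higher and AT3G26630 1.96-fold lower, where each fold is taken from the log2 difference of the normalized values. AT1G79220 and AT4G09620 cannot be ranked against each other, since AT4G09620 had the larger difference under 5 other treatments of the same 8 arrays (1.48 against -1.31 log2 units with no scaling). All 5 passed the filter that a probe has at least 3 values above 0 in each group. All 5 were also called in the limma fit over all probes. Earlier results of the same arrays were known when the genes were chosen. That fit called 32.6% of all probes tested at an adjusted p under 0.05, 14.3% higher and 18.3% lower. With the pair of replicates described below as a random block, all 5 were still called, where 14.0% of all probes were. Nothing is read from these counts.

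AT2G30100 had relative intensities of 1.95, 1.90, 2.69 and 2.44 in high CO2 replicates 1 to 4, against 0.127, 0.164, 0.506 and 0.359 in normal CO2 replicates 1 to 4. The groups did not overlap, and the lowest high CO2 array was 3.75 times the highest normal CO2 array. The mean was 2.24 ± 0.385 at high CO2 and 0.289 ± 0.177 at normal CO2 (SD, n = 4 each). The log2 fold change was 3.03 ± 0.46 (SE). The normal CO2 arrays were not evenly alike, since replicates 3 and 4 were well above replicates 1 and 2, and the highest was 3.99 times the lowest. At high CO2 the same ratio was 1.42. In normal CO2 replicates 1 and 2 the probe was dimmer than the median probe of its array.

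AT5G39980 was the 1 gene of the 5 with an array listed at 0, normal CO2 replicate 3. Its relative intensities were 0.551, 0.531, 0.836 and 0.849 in high CO2 replicates 1 to 4, against 0.176, 0.147, 0 and 0.130 in normal CO2 replicates 1 to 4. Every high CO2 array lay above every normal CO2 array, with a ratio of 3.01 between the closest arrays, and the normal CO2 arrays were all below the median probe of their array. With the array at 0 taken as missing, the log2 fold change was 2.12 ± 0.17 (SE), from 4 high CO2 and 3 normal CO2 arrays. Putting that array at the percentile 5 of its positive values, along with all dimmer values, gave 2.73. A value of 0 on this scale can be a failed estimate or a faint spot, and each array lists 133 to 219 of its probes at 0.

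AT3G26630 had relative intensities of 1.23, 1.13, 1.21 and 1.45 in high CO2 replicates 1 to 4, against 2.44, 1.98, 2.16 and 2.30 in normal CO2 replicates 1 to 4. The groups did not overlap, but they lay closer than in the other genes, with a ratio of 1.37 between the closest arrays. The log2 fold change was -0.97 ± 0.14 (SE). Its arrays were the most even among the 3 chosen PPR genes, with a highest-to-lowest ratio of 1.29 at high CO2 and 1.23 at normal CO2.

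The mTERF gene AT4G09620 had relative intensities of 1.90, 1.89, 2.09 and 1.91 in high CO2 replicates 1 to 4, against 0.645, 0.573, 0.966 and 0.662 in normal CO2 replicates 1 to 4. The high CO2 arrays were within 1.1 times of each other, whereas normal CO2 replicate 3 stood above the other normal CO2 arrays. Even so, the lowest high CO2 array was 1.96 times the highest normal CO2 array. The log2 fold change was 1.38 ± 0.21 (SE).

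AT1G79220, the other mTERF gene, had relative intensities of 0.514, 0.582, 0.561 and 0.496 in high CO2 replicates 1 to 4, against 1.25, 1.33, 1.35 and 1.42 in normal CO2 replicates 1 to 4. The groups were well apart, with a ratio of 2.15 between the closest arrays. The mean was 0.538 ± 0.0400 at high CO2 and 1.34 ± 0.0675 at normal CO2 (SD, n = 4 each). The log2 fold change was -1.40 ± 0.17 (SE).

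**Figure D1:**
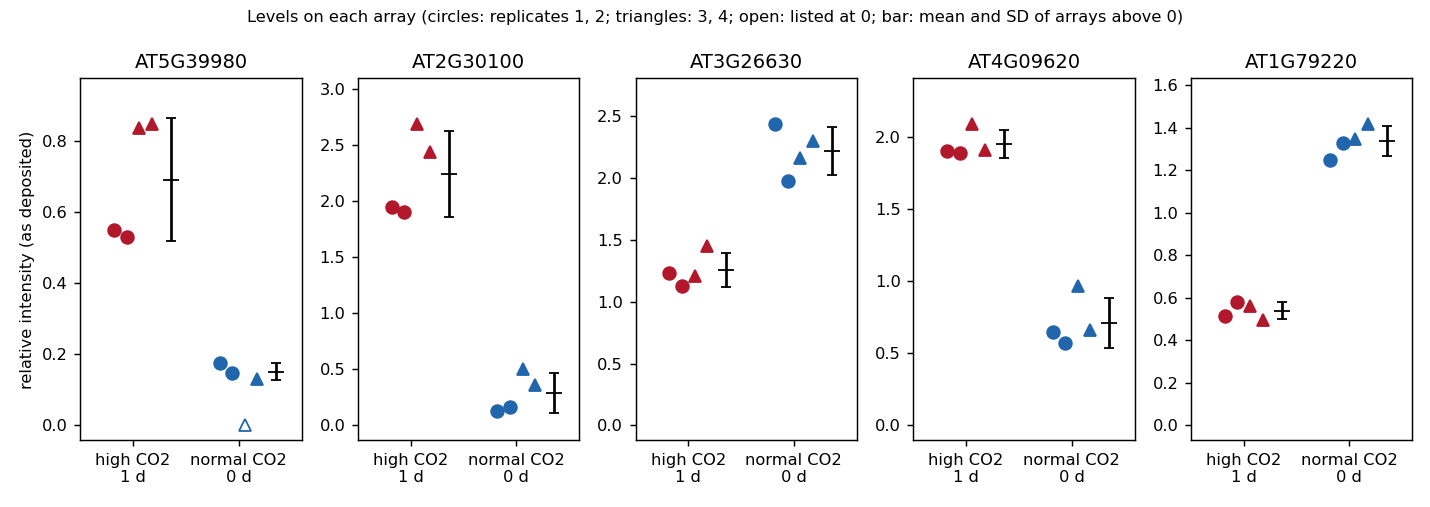
Relative intensity as deposited on each of the 8 arrays for the 5 genes, high CO2 left and normal CO2 right in each panel; circles are replicates 1 and 2, triangles replicates 3 and 4, the open symbol the array listed at 0, and the bar the mean and SD of the arrays above 0. The groups do not overlap in any panel, and AT2G30100 at normal CO2 spreads from 0.127 to 0.506.

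Of the 2932 probes above 0 on all 8 arrays, 35.7% had groups that did not overlap in the deposited values, 18.8% with high CO2 above and 16.9% with high CO2 below. The 4 chosen genes that were above 0 on all arrays were in that class. They were chosen because they differed between the groups, so nothing is read from this.

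The 4 arrays of a group were not equally alike over all probes. Replicates 1 and 2, and replicates 3 and 4, of a group correlated at 0.893 to 0.970 across probes, and arrays of a group from different pairs at 0.855 to 0.902. What sets the pairs apart is not in the labels. The array medians lay between 0.212 and 0.280, and at high CO2 they were lower in replicates 1 and 2 (0.215 and 0.212) than in replicates 3 and 4 (0.280 and 0.272), while at normal CO2 they were higher in replicates 1 and 2 (0.256 and 0.255) than in replicates 3 and 4 (0.221 and 0.227). Normalization between arrays therefore bears on any difference between the pairs.

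Within each pair of replicates all 5 genes kept their direction, but not their size. Groups that do not overlap give the same direction in any subset of arrays, so nothing is read from the shared direction. Pairs of the high CO2 and normal CO2 groups were matched here by replicate number only, and nothing in the labels ties them across the groups. AT2G30100 had a log2 fold change of 3.78 in replicates 1 and 2 and 2.28 in replicates 3 and 4, which is 13.7-fold against 4.86-fold. The pairs differed mostly at normal CO2, where replicates 3 and 4 exceeded replicates 1 and 2 by 1.71 on the normalized log2 scale, against 0.28 at high CO2. In the values as deposited the log2 differences were 3.74 and 2.59. AT4G09620 had 1.72 in replicates 1 and 2 and 1.03 in replicates 3 and 4, and 1.64 and 1.32 as deposited. Here too the pairs differed more at normal CO2, by 0.57, than at high CO2, where replicates 3 and 4 were lower by 0.09.

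For AT1G79220 the gap between the pairs was smaller in the values as deposited. Its log2 fold change was -1.11 in replicates 1 and 2 and -1.68 in replicates 3 and 4 after normalization, but -1.24 and -1.39 in the values as deposited. AT3G26630 was the most even after normalization, with -0.92 and -1.01. As deposited it had -0.90 and -0.75, a gap like that of AT1G79220, so that the larger of its pair differences changed place with the scaling. AT5G39980 had 1.93 in replicates 1 and 2 and 2.38 in replicates 3 and 4, and 1.75 and 2.70 as deposited, the second of each resting on a single normal CO2 array above 0. Differences between the pairs were not tested, since the pairs were noticed in the data and are not a label.

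**Figure D2:**
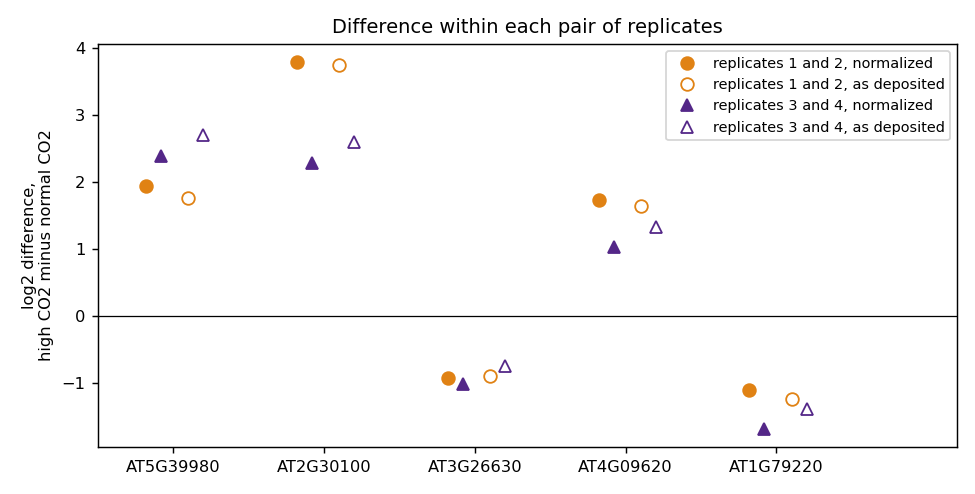
Log2 difference between high CO2 and normal CO2 for each of the 5 genes within replicates 1 and 2 (circles) and within replicates 3 and 4 (triangles), filled after quantile normalization and open for the values as deposited. All values of a gene lie on the same side of 0, which follows from groups that do not overlap. The pairs of the groups are matched by replicate number only. AT2G30100 has the widest gap between the pairs, 3.78 against 2.28.

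A further probe of the array names AT3G26630 together with a gene of another chromosome, AT2G42920, and it differed the opposite way to the probe of AT3G26630 alone. On this shared probe the relative intensities were 0.298, 0.271, 0.414 and 0.441 in high CO2 replicates 1 to 4, against 0.0392, 0.0888, 0.0335 and 0.0114 in normal CO2 replicates 1 to 4. The groups did not overlap. The difference was 3.31 log2 units with an SE of 0.55, at an adjusted p of 0.00391 in limma. With a pseudocount of 0.0549, which weighs the dim normal CO2 values less, it was 2.12. At normal CO2 all 4 arrays were below the median probe of their array. The signal of a probe with 2 gene names cannot be assigned to either gene, and which of them it measured was not tested. The direction given for AT3G26630 thus rests on its single-gene probe. The other 4 genes are named by no further probe.

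Beyond the chosen genes, few of either family could be named. Searching the gene table's symbols and synonyms for the family names found 1 further gene on a single-gene probe, AT5G55580 (mTERF9), a chloroplast mTERF protein. By symbol, 3 PPR proteins were added after the probes' gene names had been seen: OTP70, known for the splicing of a chloroplast intron, and OTP85 and CRR21, which are known for the editing of chloroplast ndhD transcripts. The families are far larger than this, and probes of other members may be among the 870 with several genes, the 1877 with no gene name, or those whose gene carries only an identifier.

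None of these 4 genes passed the threshold in the limma fit over all probes. OTP85 came nearest, with relative intensities of 0.254, 0.135, 0.234 and 0.240 in high CO2 replicates 1 to 4, against 0.147, 0.150, 0.121 and 0.146 in normal CO2 replicates 1 to 4. High CO2 replicate 2 lay among the normal CO2 arrays, and the difference was 0.48 log2 units with an SE of 0.20, at an adjusted p of 0.0983 in limma. Without that array OTP85 passed, at 0.63 and an adjusted p of 0.0345 in limma, but under no other alternative. With the pair of replicates as a random block its adjusted p was 0.379 in limma. CRR21 had 0.412, 0.366, 0.530 and 0.390 in high CO2 replicates 1 to 4, against 0.359, 0.318, 0.252 and 0.360 in normal CO2 replicates 1 to 4. In these deposited values its groups were adjacent without overlapping. After normalization they overlapped, and differed by 0.33 log2 units with an SE of 0.18, at an adjusted p of 0.183 in limma.

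OTP70 averaged 0.508 ± 0.0940 at high CO2 and 0.462 ± 0.120 at normal CO2 (SD, n = 4 each), and its groups overlapped. They differed by 0.10 log2 units with an SE of 0.19, at an adjusted p of 0.706 in limma. mTERF9 averaged 0.544 ± 0.0760 at high CO2 and 0.482 ± 0.105 at normal CO2 (SD, n = 4 each), a difference of 0.14 log2 units with an SE of 0.26, at an adjusted p of 0.709 in limma. For mTERF9 the pairs of replicates pointed opposite ways, with 0.76 in replicates 1 and 2 and -0.48 in replicates 3 and 4. In size, the smallest difference among the chosen genes was the -0.97 of AT3G26630 and the largest among these 4 was the 0.48 of OTP85. The chosen genes were picked because they differed between the groups, so nothing is read from this gap.

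Counted with the chosen genes, the PPR genes that could be assigned here numbered 6, all tested. Of these, 2 were called higher and 1 lower, and their log2 fold changes had a median of 0.41. Of the 3 mTERF genes, 1 was called higher and 1 lower, with a median of 0.14. Over all 3154 probes tested, 452 were called higher and 577 lower and the median was -0.16. Without the chosen genes, 0 of the 3 PPR genes added by symbol and 0 of 1 mTERF gene were called by limma. Among them only OTP85 had an unadjusted p under 0.05 in that fit. Other genes that carry only an identifier, including those named below, could not be assigned to a family and are not counted. The chosen genes were picked because they differed between the groups, so nothing is read from the counts that hold them.

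A list of 42 other genes of organelle gene expression, among them sigma factors, subunits of the plastid RNA polymerase complex and RNA processing enzymes, had 0 on a single-gene probe. Among the probes' symbols, 3 such genes were found afterwards. PAC, known for a role in plastid RNA maturation, fell at high CO2, with relative intensities of 0.236, 0.213, 0.259 and 0.253 in high CO2 replicates 1 to 4, against 0.382, 0.362, 0.275 and 0.280 in normal CO2 replicates 1 to 4. The closest arrays differed by a factor of 1.06, and the difference was -0.49 log2 units with an SE of 0.14, at an adjusted p of 0.0289 in limma. The call was not firm. It ended with the pair of replicates as a random block (adjusted p of 0.106 in limma) and, with adjusted p of 0.0508 to 0.0813 in limma, without any 1 of high CO2 replicates 2, 3 and 4 and normal CO2 replicates 1 and 2. ATAB2, an RNA-binding protein known for the translation of photosystem transcripts in the chloroplast, differed by 0.18 log2 units with an SE of 0.46, and OSB1, a mitochondrial DNA-binding protein, by 0.30 with an SE of 0.17, at adjusted p of 0.782 and 0.204 in limma. OSB1 passed once the trend over probe numbers was taken out, at 0.63 log2 units and an adjusted p of 0.0185 in limma, but under no other alternative. With the random block its adjusted p was 0.414 in limma.

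**Figure D3:**
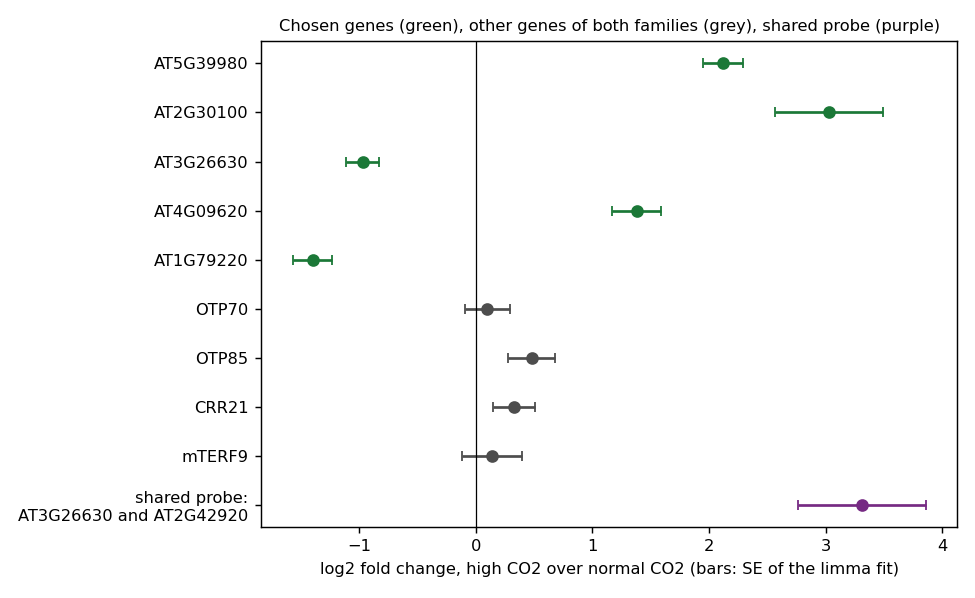
Log2 fold change of high CO2 over normal CO2 with the SE of the limma fit for the 5 chosen genes (green), the 4 other genes of both families that could be named (grey) and the probe shared by AT3G26630 and AT2G42920 (purple). The chosen genes lie at -1.40 to 3.03, the 4 others at 0.10 to 0.48, and the shared probe at 3.31, opposite to AT3G26630 at -0.97. The chosen genes were picked because they differed between these groups.

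The genes with the most similar pattern over the arrays were found as those whose normalized log2 profile, centred on its mean, had the smallest root mean square difference from that of the chosen gene. The comparison ran over 8 arrays and 573 single-gene probes above 0 on all arrays, or 7 arrays and 574 probes for AT5G39980. Since the group difference dominates each profile, the neighbours share its direction by construction, and likewise any gap between the pairs of replicates.

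AT2G30100 was followed most closely by AT3G56810, at a root mean square difference of 0.26 log2 units, and then at a distance by AT1G51080 (0.48) and AT2G23160 (0.56). AT3G56810 had log2 fold changes of 4.19 in replicates 1 and 2 and 2.19 in replicates 3 and 4. It averaged 6.59 ± 0.969 at high CO2 and 0.767 ± 0.446 at normal CO2 (SD, n = 4 each). AT1G51080 had 3.18 in replicates 1 and 2 and 1.68 in replicates 3 and 4.

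AT4G09620 had 3 close neighbours, AT1G49850 (0.16), AT4G08940 (0.18) and AT1G18060 (0.20). Their log2 fold changes were 1.5, 1.34 and 1.38, with 1.83 to 1.90 in replicates 1 and 2 and 0.86 to 1.08 in replicates 3 and 4. AT5G39980 was closest to PRA1.B6 (0.21), a member of a family of membrane proteins of vesicle transport, and then to AT5G44000 and AT3G58830 (0.31 each).

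AT1G79220 was closest to AT2G33180 (0.13), LPA19 (0.19), an assembly factor of photosystem II, and GH9B11 (0.21), a glycosyl hydrolase of the endoglucanase family. LPA19 averaged 0.562 ± 0.0280 at high CO2 and 1.11 ± 0.0389 at normal CO2 (SD, n = 4 each), which is -1.05 ± 0.15 (SE) in log2 units. AT3G26630 was closest to AT2G30320 and AT4G00590 (0.15 each) and AT4G16610 (0.16), which had log2 fold changes of -0.77, -0.91 and -0.91. Among the chosen genes themselves the most similar profiles were those of AT3G26630 and AT1G79220, at 0.31 over 8 arrays, and of AT5G39980 and AT4G09620, at 0.35 over 7 arrays. In both cases a PPR gene was nearest to an mTERF gene. The first pair held the only chosen genes that were lower, so it follows from their direction. Nothing is read from this about the families.

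**Figure D4:**
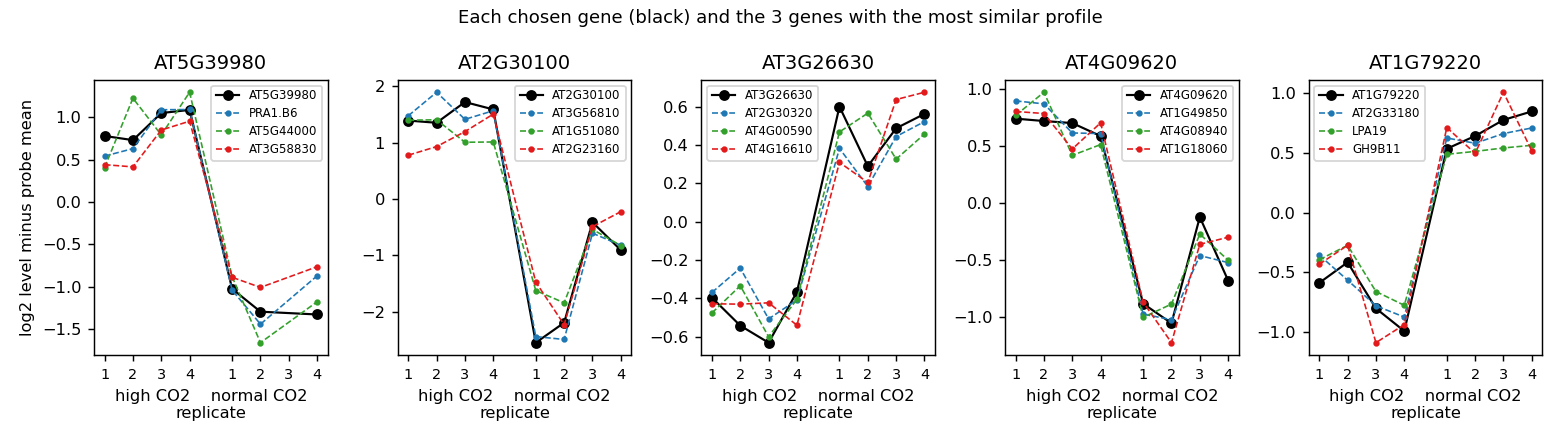
Normalized log2 level minus the probe's mean on each array for each chosen gene (black) and the 3 single-gene probes nearest to it, high CO2 replicates left and normal CO2 replicates right; lines only join the points of a gene, and replicates have no order. AT3G56810 follows AT2G30100 through the step between normal CO2 replicates 2 and 3, at a root mean square difference of 0.26.

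Within 6 probe numbers on either side of the chosen genes on the array, 40 probes were tested. Of these, 11 were called, 5 in the same direction as the chosen gene and 6 in the other, which is 27.5%, beside 32.6% of all probes. Around AT1G79220, 10 probes had log2 fold changes of -0.29 to 0.77, all above its -1.40, and 0 were called by limma. Around AT4G09620, at 1.38, 9 probes had a median of -0.65, and 3 were called lower and 0 higher. The neighbours of AT2G30100 had a median of 0.50 and a highest value of 2.30, and of 6 probes 2 were called in its direction and 1 in the other. Those of AT5G39980 had a median of -0.03 and a highest value of 3.09, with 1 called in each direction. The 8 neighbours of AT3G26630 had a median of -0.02, with 2 called in its direction and 1 in the other. The sources used here do not say what the probe numbers stand for on the array.

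**Figure D5:**
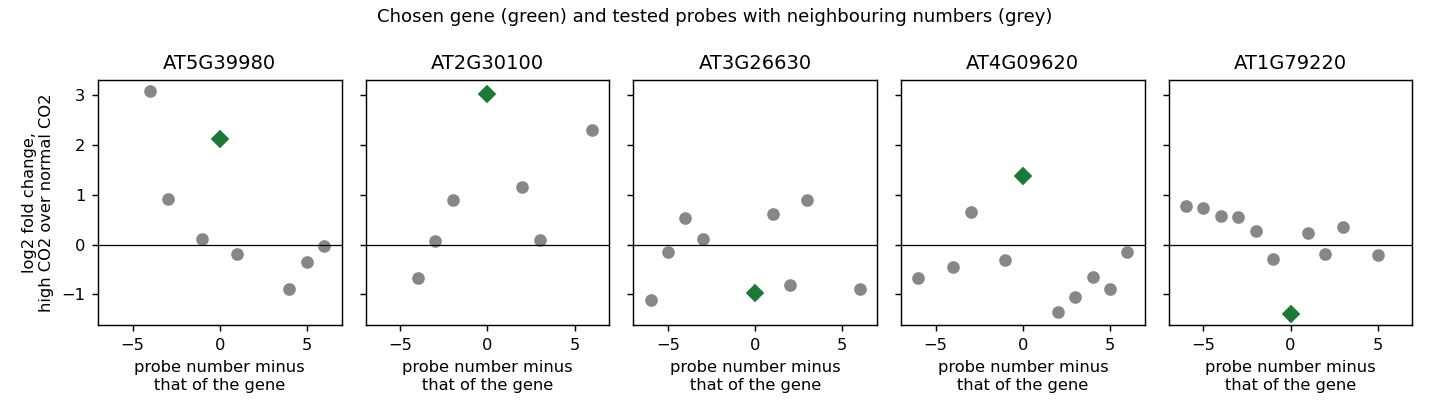
Log2 fold change of high CO2 over normal CO2 for each chosen gene (green diamond) and for the tested probes up to 6 probe numbers away (grey points), against the difference in probe number. The medians of the grey points are -0.03, 0.50, -0.02, -0.65 and 0.32 from left to right.

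In the order of genes along the chromosomes, 10 tested single-gene probes lay within 25 protein-coding genes of a chosen gene. Of these, 5 were called, 2 in the direction of the chosen gene and 3 in the other, beside 32.6% of all probes. With the pair of replicates as a random block, 1 of the 10 was called, beside 14.0% of all probes. The nearest of the 10 was AT5G40030, 5 genes from AT5G39980. It had relative intensities of 0.135, 0.150, 0.108 and 0.170 in high CO2 replicates 1 to 4, against 0.0840, 0.0516, 0.0163 and 0.0112 in normal CO2 replicates 1 to 4. Its groups did not overlap, and it was higher by 2.16 log2 units with an SE of 0.63, at an adjusted p of 0.0329 in limma, or by 1.13 with the pseudocount. The call ended with the pair of replicates as a random block (adjusted p of 0.0906 in limma) and without any 1 of high CO2 replicates 1, 2 and 4 and normal CO2 replicates 3 and 4, at adjusted p of 0.0528 to 0.0779 in limma. The next genes along with a tested single-gene probe were AT5G40050 at -0.33, AT5G40070 at -0.49 and AT5G40140 at 0.41. They lay 7, 9 and 14 genes from AT5G39980 and did not pass over all arrays. In replicates 1 and 2 alone AT5G40070 was called at -1.16 and AT5G40140 at 1.32, with adjusted p of 0.0193 and 0.0482 in limma, where replicates 3 and 4 gave 0.18 and -0.59.

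On both sides of AT2G30100, itself at 3.03, the nearest tested genes were lower, though far off in gene order. AT2G30320, 21 genes away, was at -0.77 ± 0.14 (SE) and AT2G29870, 24 genes away, at -1.11 ± 0.31 (SE). Their adjusted p were 0.00547 and 0.0273 in limma. With the trend over probe numbers taken out, neither passed, AT2G30320 at -0.27 and AT2G29870 at -0.81 (adjusted p of 0.152 and 0.0704 in limma). AT2G30320 also missed the threshold in replicates 1 and 2 alone, at -0.59 (adjusted p of 0.0702 in limma), and passed with the random block (adjusted p of 0.0333 in limma). AT2G29870 was at -0.37 in replicates 3 and 4 alone, and its call ended with the random block (adjusted p of 0.0813 in limma), with the values as deposited (0.0782) and without high CO2 replicate 2 or normal CO2 replicates 1 or 2 (0.0603 to 0.0712). AT2G30320 is also the gene whose profile was nearest to that of AT3G26630. On the sides of AT1G79220, AT1G79080 (14 genes away) was lower at -0.87 ± 0.23 (SE) and AT1G79480 (23 genes away) higher at 0.64 ± 0.16 (SE). Their adjusted p were 0.0252 and 0.0181 in limma. Both calls ended with the random block (adjusted p of 0.185 and 0.106 in limma). That of AT1G79080 also ended with that trend taken out, at -0.43, and without high CO2 replicate 1 or normal CO2 replicates 1, 2 or 4 (adjusted p of 0.0538 to 0.0652 in limma), and that of AT1G79480 without normal CO2 replicates 1 or 2 (0.0557 and 0.0526). On the sides of AT3G26630, AT3G26580 (7 genes away) at 0.08 and CCL (11 genes away) at -0.54 did not pass over all arrays. CCL was called in replicates 1 and 2 alone, at -0.98 (adjusted p of 0.0232 in limma). AT4G09620 had no tested single-gene probe in this range.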

How the data were processed

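The 8 arrays were compared as 4 at high CO2 and 4 at normal CO2, grouped by their titles. The deposited values are relative intensities on a linear scale; how the authors corrected background or normalized is not given in the sources used here. Values at 0 were taken as missing, log2 values were quantile normalized between arrays, and probes with at least 3 values per group (3154 of 3439) were fitted with limma 3.58.1 in R 4.3.3 (lmFit, eBayes, two-sided, Benjamini-Hochberg over 3154 probes, threshold 0.05). A positive log2 fold change is higher at high CO2. The script was tested on simulated data. Figures used Python 3.11.15 and matplotlib 3.10.9.

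Of the 692 single-gene probes, 690 matched the gene table of assembly TAIR10.1, which gave names and gene order only, because no build is named for the probes. No sequences are shown.

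The genes and lists were chosen with earlier results of these data known. Genes named are the 5 chosen, the tested genes of both families that could be assigned, and for each chosen gene the 3 nearest profiles. The shared probe, the genes found by symbol and the neighbours in gene order were added after seeing the data. The number of arrays limits the precision. Alternatives were other normalizations, treatments of 0 and of dim probes, variance models, blocks, array subsets and leaving out each array. Same-numbered arrays of the groups were not treated as paired: their deviations from the group means correlated at 0.0385 to 0.133 across probes, and not every value was above 0.1.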

Additional observations from a re-analysis of the deposited data

Results flagged for a closer look

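Among the named genes, 57 groups of 4 arrays were examined for an array that stood apart, and about 2.85 would do so by chance. There was 1, AT4G16610 at high CO2, where replicate 4 had a normalized log2 level of -1.54 and the others -1.43 to -1.42, so that the gap took up 0.935 of the range. The values lie close together. None of the 5 chosen genes had such an array. AT5G39980 at normal CO2, with 3 values above 0, could not be examined in this way.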

How the results depend on the processing

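The 5 chosen genes gave 100 values under 20 alternatives, 0 with the opposite sign and 6 without the call. The genes were chosen because they differed between the groups in earlier results of these data, so neither count supports their differences. With each pair of replicates averaged, which leaves 2 values a group, limma called 0 probes in all, 0 higher and 0 lower, although the unadjusted p of 775 was under 0.05, and hence 0 PPR and 0 mTERF genes; the log2 fold changes were then 2.15 for AT5G39980, -0.97 for AT3G26630, 3.03 for AT2G30100, 1.38 for AT4G09620 and -1.40 for AT1G79220. In replicates 3 and 4 alone AT4G09620, at 1.03, was not called (adjusted p of 0.0608 in limma), so 0 of the mTERF genes counted were called higher. With the pair of replicates as a random block (correlation 0.55) 442 probes were called, 235 higher and 207 lower. The replicate block called 845 of the 3154 probes. Leaving out each array gave 370 to 524 probes called lower, 370 without normal CO2 replicate 1 and 384 without normal CO2 replicate 2. High CO2 was higher in 43.9% of the calls, but in 56.3% when the deposited values were left unscaled. That moved the median over all probes to -0.07, against -0.16, and removing the trend along the probe numbers moved it to -0.04. In the unscaled values the 5 genes lay at 2.17, -0.82, 3.16, 1.48 and -1.31 for AT5G39980, AT3G26630, AT2G30100, AT4G09620 and AT1G79220.

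Genes that did not pass changed sign in some settings. In replicates 1 and 2 alone OTP70 was at -0.04, ATAB2 at -0.41 and AT3G26580 at -0.01, the last also at -0.01 without the trend along the probe numbers. In replicates 3 and 4 alone mTERF9 was at -0.48, AT5G40050 at 0.50, AT5G40070 at 0.18 and AT5G40140 at -0.59. Leaving out each array gave -0.0027 to 0.22 for OTP70, -0.01 to 0.28 for mTERF9 and -0.07 to 0.54 for ATAB2. The cause was not tested. Probes near the lower end of the scale, such as AT5G39980 at normal CO2, are limited by values at 0.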
